A study of Homo sapiens with 2 samples.

Results

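The peroxisome proliferator-activated receptors PPARG, PPARA and PPARD and their partners, the retinoid X receptors RXRA, RXRB and RXRG, were followed in HCT116, a line of human colorectal carcinoma cells, with and without knockdown of SUN2. These 6 genes, of 18132 genes on the array with a probe set assigned to a single symbol, were taken by name with all of their 23 probe sets, of 44988 such probe sets in all. The set was chosen by gene name around PPARG, whose difference between these same 2 arrays was already known, so every value below is a description and carries no test. The scrambled control group (treatment label Scr, genotype label control) and the SUN2 knockdown group (treatment label shSUN2-1) each held 1 array. Both groups were grown in DMEM with 10% FBS at 5% CO2, and biotinylated cRNA was prepared from 100 ng of total RNA for Affymetrix arrays. The knockdown rests on 1 hairpin against SUN2, an inner nuclear membrane protein that links the nucleus to the cytoskeleton, and the labels give neither the vector of either hairpin nor the time of harvest. Without replicates no error between cultures exists for any value.

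PPARs are nuclear receptors that bind fatty acids and their derivatives. Each pairs with an RXR, and the pair binds a direct repeat of the hexamer AGGTCA with a spacer of a single base (a DR1 element) near its target genes, where ligand exchanges corepressors for coactivators. PPARG is the master regulator of fat cell formation and is also found in colon epithelium, PPARA drives fatty acid oxidation in liver, and PPARD is broadly expressed. RXRA and RXRB are found in most tissues, whereas RXRG is more restricted. The values are probe set intensities as deposited, and a difference is the knockdown minus the control array on the log2(intensity + 16) scale. On that scale 1.5-fold is a difference of 0.58.

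The start sites of PPARG differ in base composition from those of PPARA and PPARD, and 250 bases before 5 start sites of these PPAR genes are printed to show this. RefSeq sequence of GRCh38.p14 was matched by symbol for all 6 receptors, as 14 windows that reach from 250 bases before a start site to 50 after it. Capitals mark the AGGTCA hexamer, a looser C/EBP motif (TTGCNNAA) and the GC box GGGCGG on either strand, and neighbouring GC boxes can overlap.
PPARG, first start (chr3:12287118-12287367, + strand): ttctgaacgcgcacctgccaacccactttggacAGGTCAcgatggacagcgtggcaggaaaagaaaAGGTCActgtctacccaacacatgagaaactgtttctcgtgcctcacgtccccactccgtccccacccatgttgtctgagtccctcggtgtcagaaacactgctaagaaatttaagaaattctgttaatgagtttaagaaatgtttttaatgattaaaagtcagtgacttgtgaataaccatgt
PPARG, second start (chr3:12288810-12289059, + strand): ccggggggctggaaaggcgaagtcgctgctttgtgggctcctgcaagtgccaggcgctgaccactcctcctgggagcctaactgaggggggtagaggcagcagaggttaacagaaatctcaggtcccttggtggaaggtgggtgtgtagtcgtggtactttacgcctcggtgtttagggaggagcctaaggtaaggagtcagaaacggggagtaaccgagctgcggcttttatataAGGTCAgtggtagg
PPARG, farthest downstream start (chr3:12351167-12351416, + strand): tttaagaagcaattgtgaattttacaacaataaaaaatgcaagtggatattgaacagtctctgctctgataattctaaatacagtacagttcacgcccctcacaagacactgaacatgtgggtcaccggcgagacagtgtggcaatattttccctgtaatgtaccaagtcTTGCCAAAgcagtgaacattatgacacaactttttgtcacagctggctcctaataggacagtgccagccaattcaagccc
PPARD (chr6:35342308-35342557, + strand): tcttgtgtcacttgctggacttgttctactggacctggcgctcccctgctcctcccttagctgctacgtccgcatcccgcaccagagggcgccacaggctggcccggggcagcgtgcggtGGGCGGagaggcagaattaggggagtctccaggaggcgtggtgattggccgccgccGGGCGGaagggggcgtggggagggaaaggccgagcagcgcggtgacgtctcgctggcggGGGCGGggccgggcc
PPARA (chr22:46150276-46150525, + strand): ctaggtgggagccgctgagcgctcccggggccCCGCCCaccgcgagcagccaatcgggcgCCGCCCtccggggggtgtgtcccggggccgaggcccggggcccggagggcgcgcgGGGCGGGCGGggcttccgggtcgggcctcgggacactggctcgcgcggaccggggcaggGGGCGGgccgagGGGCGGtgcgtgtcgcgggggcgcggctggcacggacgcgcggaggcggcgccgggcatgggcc

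PPARG had 6 windows, of 41.0% to 56.7% G and C, below the median of 58.7% over all 35116 windows of the same length. Its first start carried 2 AGGTCA hexamers, whose first bases lay at -217 and -184 from the start site. Its second start carried 1 at -14, which also lies in an overlapping window whose start site is 10 bases downstream. Over all windows, 13.8% held the hexamer, and among the receptors 3 PPARG windows and the 1 RXRG window did. The farthest downstream PPARG window held TTGCCAAA at -80, a match to the C/EBP motif found in 10.5% of all windows. None of the 6 PPARG windows held GGGCGG, against 45.0% of all windows, whereas the PPARD window held 3 and the 2 PPARA windows, of 85.7% and 86.7% G and C, held 17 together. The feature is not particular to PPARG, as 1 of the 2 RXRB windows, of 54.0% G and C, held 0 as well. An exact DR1 (AGGTCANAGGTCA, which contains the hexamer) was in 0 of the 14 receptor windows and in 8 of all 35116. A match is only a match of letters, and the table does not say which transcript form begins at which window. The probe sets were not tied to a start site either, so the PPARG values below belong to the gene and not to one of its forms.

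PPARG was the 1 receptor gene that differed by at least 1.5-fold between the arrays, and it was higher in the SUN2 knockdown. Its brighter probe set, 11720708_a_at, had an intensity of 161.5 in the control and 260.2 with the knockdown, which is 161% of control. Its second probe set, 11753001_a_at, read 110.5 and 168.1, 152% of control. Both probe sets were therefore higher in the knockdown array, and both were already above the filter on low values (an intensity of about 108) in the control array, so PPARG did not enter the comparison through its higher value. In RNA of a whole culture, more cells that express PPARG and more PPARG RNA per cell cannot be told apart. The differences were 0.64 and 0.54 on the log2 scale, or 1.56-fold and 1.46-fold, so that the second lies just short of 1.5-fold. Of all 22628 probe sets past the filter, 66 (0.292%) were at least 1.5-fold higher.

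The differences of a gene's probe sets spread about their gene mean with an SD of 0.09, taken over 5786 genes with at least 2 probe sets past the filter. This SD covers the spread between probe sets of a gene on these arrays only, whatever its source. It says nothing of the spread between cultures. Of 12220 genes past the filter, 41 were at least 1.5-fold higher (0.336%) and 3 at least 1.5-fold lower (0.0245%), and PPARG ranked at 33 from the highest. After quantile normalization these counts were 29 and 10, and after loess 32 and 8. When all probe sets of a gene were averaged, 22 genes were at least 1.5-fold higher, and PPARG, at 1.505-fold, was the lowest of them. Its rank ran from 21 to 44 over the settings. Among the 5786 genes with at least 2 probe sets past the filter, 8 (0.138%) had all of them at or above 0.54, PPARG included. The genes just above PPARG in the order of differences were FAM3C and KRT13, an epithelial keratin, each at 0.64, and those just below were TPBG (0.64) and FAM83H (0.63). Nearness in this order rests on a single difference between 2 arrays.

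**Figure D1:**
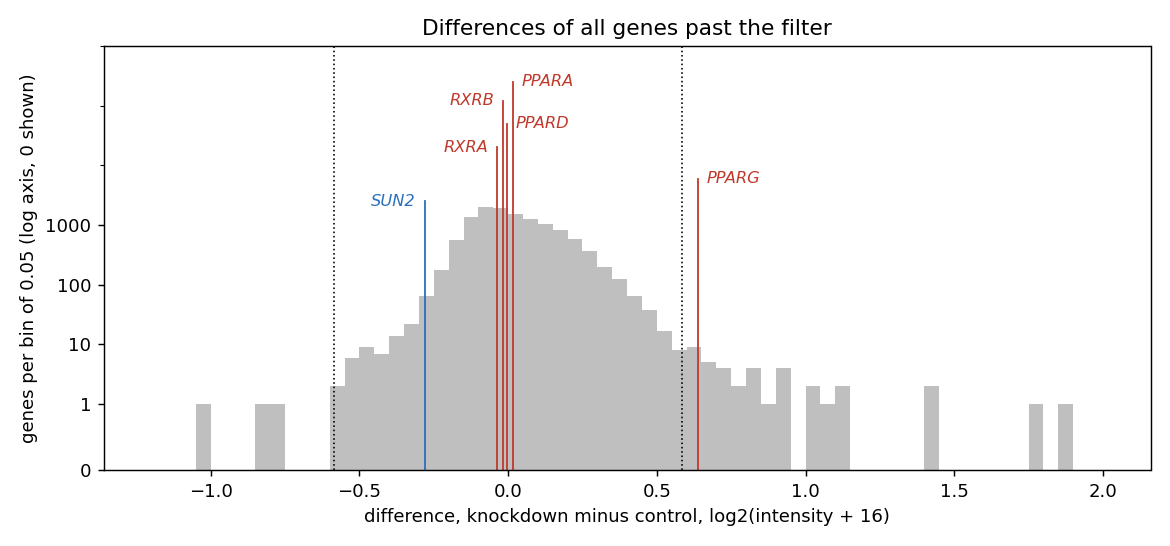
Differences of the 12220 genes past the filter on low values, as a histogram with bins of 0.05 on the log2(intensity + 16) scale and a log axis for gene counts; vertical lines mark receptor genes (red) and SUN2 (blue), and dotted lines 1.5-fold. PPARG, at 0.64, lies in the sparse upper tail, and PPARA, PPARD, RXRA and RXRB lie between -0.04 and 0.02.

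PPARG was dim, and the background left in the values bears on the size of its difference. The array carries background probe sets that match no transcript, ordered by how many of their bases are G or C, and these read 153.5 at 17 such bases and 182.0 at 18 in the control array. The brighter PPARG probe set lay between these in the control array, and 8 of the 23 background controls were above it. Background readings were lower with the knockdown for 20 of the 23 controls, and those with 17 to 20 G or C bases differed by -7.16, -9.11, -13.5 and -18.7 intensity units. The PPARG probe sets differed by 98.7 and 57.6 units. The number of G and C bases in the PPARG probes was not used here, so which controls apply to them is not known, and the part of background in the PPARG difference was not tested. With a normexp background correction and no offset the PPARG difference was 0.76, and with a pseudocount of 64 it was 0.52, short of 1.5-fold.

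**Figure D2:**
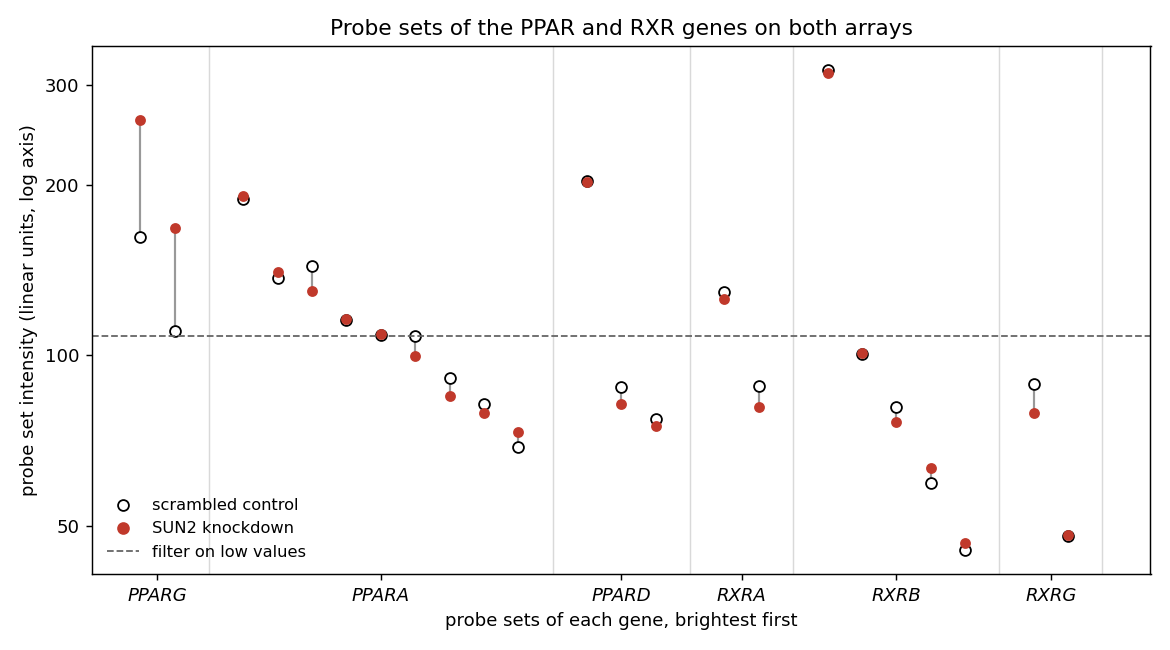
Intensity (log axis) of each of the 23 probe sets of the 6 receptor genes in the scrambled control array (open circles) and the SUN2 knockdown array (filled circles), brightest probe set first within each gene, with a dashed line at the filter on low values. The 2 PPARG probe sets are the only ones with a wide gap; every other pair lies within 88.8% to 106% of control.

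The other PPARs showed no difference of that size. PPARA, the fatty acid oxidation receptor, had 9 probe sets, of which 5 passed the filter. Its brightest, 11763679_at, stood at 188.6 in the control and 190.9 with the knockdown, a difference of 0.02. The next, 11764026_at, read 137.1 and 140.4 (0.03). The lowest difference of any PPARA probe set was -0.13, on 11763680_a_at, which read 144.0 and 129.9 and was designed to the same source transcript as the brightest one. The PPARA probe sets thus disagreed in sign, with 5 higher and 4 lower, and they ran from -0.13 to 0.07. PPARD, the broadly expressed PPAR, read 202.9 and 202.2 on its brightest probe set, 11725171_at, a difference of -0.0046. Its 2 further probe sets lay below the filter, at 88.0 and 82.2 and at 77.2 and 75.1, and both were slightly lower in the knockdown array.

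RXR genes, whose products pair with PPARs, were also close between the arrays. RXRB had the brightest probe set of the 3 RXR genes, 11717209_s_at, at 318.9 in the control and 315.1 with the knockdown (-0.02). That probe set belongs to the _s_at class, which can match transcripts of more than 1 gene, and the brightest RXRB probe set outside that class read 100.6 and 101.0. The 3 dimmer RXRB probe sets, from 45.3 to 81.2 in the control array, differed by -0.08 to 0.07. RXRA read 129.4 and 125.7 on 11742844_a_at (-0.04), and 88.5 and 81.1 on its second probe set (-0.11). Both RXRA probe sets were lower in the knockdown array.

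RXRG, the most restricted of the RXRs, did not reach the filter. Its probe sets read 89.0 and 79.0 on 11727086_at and 48.0 and 48.3 on 11733617_a_at. These intensities are within the range of the background controls, of which 10 were above the brighter RXRG probe set in the control array, and its difference was -0.14, the most negative of the 23 receptor probe sets. Background probe sets of 15 and of 16 G or C bases, which read 84.6 and 98.6 in the control array, differed by -0.06 each.

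Apart from PPARG, 9 of the 21 receptor probe sets were higher in the knockdown array and 12 lower. Their median difference was -0.02, with a range from -0.14 to 0.07. Past the filter, 4 were higher and 4 lower, where 51.0% of all probe sets past the filter were higher. Below it, 8 of 13 were lower, where 66.4% of all probe sets below the filter were lower. The genes PPARA, PPARD, RXRA and RXRB stood within 0.1 of 0 on the log2 scale, as did 54.8% of all genes past the filter. At gene level 1 of the 5 receptor genes past the filter was at least 1.5-fold higher, beside the 0.336% of all genes given above, and as the set was chosen with that difference known nothing is read from this share.

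**Figure D3:**
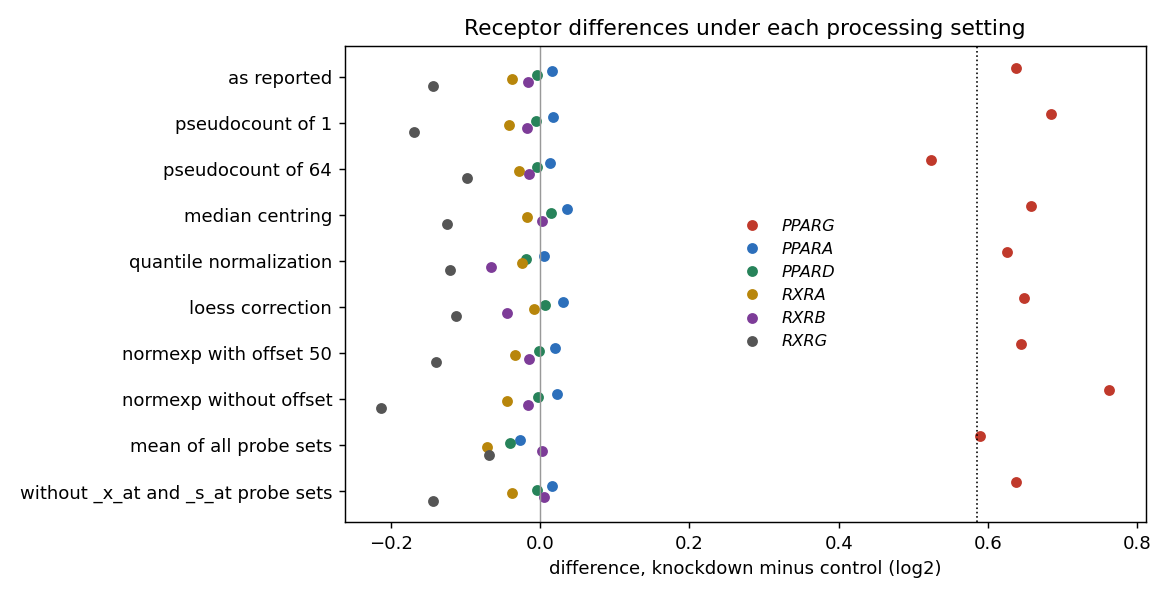
Difference of each receptor gene between the knockdown and control arrays (log2) as reported and under 9 other processing settings, 1 row per setting and 1 colour per gene, with a dotted line at 1.5-fold. PPARG runs from 0.52 to 0.76 and passes 1.5-fold in all rows but that for a pseudocount of 64; the other genes stay between -0.21 and 0.04.

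SUN2, the targeted gene, was lower, with 497.7 against 407.3 (control against knockdown) on its brightest probe set (-0.28, or 81.8% of control). All 6 of its probe sets were lower. Of the 12220 genes past the filter, 80 had a lower difference than SUN2. In absolute size the PPARG difference exceeded that of every SUN2 probe set, of which the largest was -0.39. The labelled cell type was checked through epithelial markers. EPCAM read 1342 and 1480 on its brightest probe set (0.14), and its other probe sets differed by 0.04 and 0.02. The simple keratins KRT8, KRT18 and KRT19 differed by 0.34, 0.32 and 0.22. All KRT8 and KRT18 probe sets are of the _x_at class, which may match related sequences. CDH1 and CDX2 were at 0.04 each, ELF3 at 0.09 and CDX1 at -0.06. VIL1, at 86.9 and 78.7, and LGALS4, at 93.1 and 92.7, lay below the filter. Of 8 epithelial markers past the filter 7 were higher in the knockdown array, with a median of 0.12, where 49.8% of all genes were higher. Brighter genes ran higher on these arrays, as the median of all genes was -0.0009 past the filter and 0.04 with a filter at the 75th percentile. KRT8 read 1041 and KRT19 2619 in the control array, so the 49.8% is not a like baseline for the bright markers. The part of the cells' epithelial state in the PPARG difference was not tested. Of 7 adipocyte markers, 5 passed the filter and were lower on their brightest probe set, from -0.12 to -0.04, and FABP4, the fat cell lipid chaperone, read 63.8 and 58.2. ADIPOQ, PLIN1, CIDEC, LPL and FABP4 are also among the PPAR target genes listed below, so these lists overlap. Background probe sets of like brightness, with 17 and 18 G or C bases, differed by -0.06 and -0.07, and 1 dimmer probe set each of ADIPOQ (0.0069), PLIN1 (0.0034) and LPL (0.06) was higher. The brightest probe sets of the 7 summed to 868.8 in the control and 811.5 with the knockdown, background included. Markers of fibroblasts, immune cells and endothelium were also lower on their brightest probe set, in all 10 genes past the filter, where 49.8% of all genes were higher. No such gene was above an intensity of 254.1 in the control array. Background probe sets with 17 to 19 G or C bases, at 153.5 to 235.9 in the control array, differed by -0.06 to -0.08. For CD68 (0.09) and VWF (0.04) 1 dimmer probe set each was higher.

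Genes that PPAR and RXR pairs are known to induce did not stand apart as a group. Of 55 such genes listed, 49 had a probe set with a single symbol and 37 passed the filter. Of these 15 were higher and 22 lower in the knockdown array. The lower ones include ADIPOQ, PLIN1, CIDEC and LPL, already given as adipocyte markers. The part of background in the differences of the dim target genes was not tested. By 1.5-fold 0 differed in either direction, where 0.336% of all genes were higher and 0.0245% lower by that much. At such shares a list of this length would seldom hold any, so nothing is read from the 0. Their median was -0.02, beside -0.0009 for all genes past the filter, of which 49.8% were higher. The range ran from -0.36 to 0.31.

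Target genes of fatty acid oxidation held both directions. ACADM, the medium-chain acyl-CoA dehydrogenase, read 571.5 and 690.8 on its brightest probe set (0.27), and the 6 ACADM probe sets above the filter were all higher, by 0.20 to 0.34. HADHB, the thiolase subunit of the mitochondrial trifunctional protein, was at 0.16, with 3 probe sets above the filter between 0.08 and 0.16. CPT1A, which controls entry of fatty acids into mitochondria, read 648.0 and 639.4 (-0.02). ACAA2, a mitochondrial thiolase, read 162.9 and 146.6 (-0.14) on its 1 probe set. Background probe sets of like brightness, with 17 and 18 G or C bases, differed by -0.06 and -0.07. PDK4, the pyruvate dehydrogenase kinase that PPAR ligands induce in many cells, lay below the filter at 69.1 and 71.3.

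Among lipid storage and transport genes, PLIN2, the lipid droplet coat protein of most cells, read 172.2 and 199.2 (0.19). FABP5, which carries fatty acids to PPARD, read 2164 and 2594 (0.26) on its 1 probe set, which is of the _x_at class and may match related sequences. ANGPTL4, a secreted lipase inhibitor and a frequently used PPAR readout, went the other way, at 228.9 and 197.4 (-0.20). The scavenger receptors CD36 and OLR1 were not higher on their brightest probe set. CD36 read 47.6 and 47.2, below the filter. OLR1 read 124.9 and 111.4 (-0.15) on the 1 of its 4 probe sets past the filter. That is dimmer than the background probe set with 17 G or C bases, which read 153.5 in the control array and differed by -0.06. FABP1, the intestinal and liver form, lay below the filter as well. In fatty acid synthesis, SCD, the stearoyl-CoA desaturase, read 3016 and 2343 (-0.36), the lowest of the list, with 3 probe sets above the filter between -0.36 and -0.20. All 3 are of the _s_at class, which can match transcripts of more than 1 gene. ME1, the malic enzyme that supplies NADPH, was the highest at 0.31, but its second probe set differed by -0.0003. CREB3L3, a hepatic and intestinal factor, was at -0.23 on the 1 of 3 probe sets past the filter and at -0.06 over all 3.

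The 300-base windows around the start sites of the target genes were searched for the same motifs. Windows were found for 43 of the 55 genes, 61 in all. An exact DR1 was in 0 of them, beside 8 of all 35116. The AGGTCA hexamer was in 9.84% of the 61 windows, beside 13.8% of all windows, TTGCNNAA in 11.5% beside 10.5%, and GGGCGG in 54.1% beside 45.0%. Response elements known to lie outside such windows, in introns or farther upstream, are not covered by this search.

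Coregulators, the proteins that PPAR and RXR recruit, were higher more often than lower. Of 25 listed, 22 were measured and 18 passed the filter, of which 13 were higher on the brightest probe set (72.2%, beside the 49.8% of all genes). Their median was 0.06 and none was past 1.5-fold, where 0.336% of all genes were higher and 0.0245% lower by that much. Of the 9 with at least 2 probe sets past the filter, 2 had all of these in the same direction. Those were PRMT1 and PRDM16, both lower. NRIP1, a corepressor of nuclear receptors in metabolic tissue, read 206.0 and 267.8 (0.35). PPRC1, a member of the PGC-1 coactivator family, was at 0.30, the acetyltransferase CREBBP at 0.25, the arginine methyltransferase CARM1 at 0.22 and the Mediator subunit MED1 at 0.21. CREBBP and MED1 probe sets disagreed, with the lowest past the filter at -0.07 and -0.05. TBL1XR1, a subunit of the NCoR corepressor complex, was lower on its brightest probe set, at 1049 and 852.3 (-0.30), and higher on the next (0.08). PPARGC1B was at -0.15, and PPARGC1A, the founding PGC-1 coactivator, lay below the filter at 65.3 and 61.6.

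Other nuclear receptors that pair with RXR showed small differences. Of 13 listed, 8 passed the filter, 2 were higher and 6 lower, and the median was -0.06, where 49.8% of all genes were higher. NR4A2, an orphan receptor induced as an immediate early gene, read 239.3 and 288.0 (0.25), with its 3 probe sets between 0.02 and 0.40. VDR, the vitamin D receptor, was at -0.12 on its brightest probe set, at 0.34 on the second (162.2 and 209.0) and at -0.10 on the third past the filter, so that its direction depends on the probe set. The retinoic acid receptors RARA and RARG were at -0.07 and -0.09, and the thyroid hormone receptors THRA and THRB at -0.05 and -0.15.

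Transcription factors that act upstream of or with PPARG in fat cell formation had the highest median of the 5 functional lists, 0.10, although it was 0.02 without the filter, below the 0.05 of the coregulators. Of 12 such genes past the filter, 9 were higher and 0 past 1.5-fold, where 49.8% and 0.336% of all genes were. KLF5, a factor of intestinal crypts and of early adipogenesis, read 194.8 and 225.3 (0.19) on one probe set and 120.8 and 187.6 (0.57) on the other past the filter. CEBPD, an early adipogenic factor, was at 0.24, and the 4 CEBPD probe sets above the filter were all higher, by 0.07 to 0.33. CEBPB, its partner, differed by 0.09, and CEBPA, which maintains PPARG in fat cells, lay just below the filter at 107.7 and 106.8. KLF2 was at 0.25 and SREBF1, the lipogenic factor, at 0.16. The second SREBF1 probe set past the filter read 273.9 and 271.9 (-0.01). GATA2, which restrains PPARG in preadipocytes, was at 0.40 on its brightest probe set, while its 2 further probe sets past the filter differed by -0.04 and -0.01. ZNF467 was the lowest, at -0.18. Both STAT5 genes were lower, STAT5A at -0.15 and STAT5B at -0.09.

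Genes that carry, make or remove ligands of these receptors included 1 gene past 1.5-fold. Of 25 listed, 14 passed the filter, 9 were higher and 5 lower, and the median was 0.06, where 49.8% of all genes were higher and 0.336% at least 1.5-fold higher. ALDH1A3, which makes retinoic acid, had 631.1 in the control and 1093 with the knockdown on 11754184_a_at (0.78, or 1.71-fold). Its second probe set past the filter read 174.9 and 158.3 (-0.13) and its 3 dimmer ones differed by -0.04 to 0.05, so the ALDH1A3 difference rests on a single probe set. The retinoid enzymes DHRS3 and RDH10 were at 0.25 and 0.22, and RDH11 at 0.14. The dimmer DHRS3 probe sets differed by -0.01 and 0.03. Past the filter the 2 RDH10 probe sets differed by 0.11 and 0.22, and the 3 of RDH11 by -0.0068 to 0.14. CRABP2, which delivers retinoic acid to its receptor, was at -0.12, with its 3 probe sets between -0.17 and -0.08. The lipoxygenases ALOX15 and ALOX15B were at -0.15 and -0.09. The prostaglandin synthases PTGS1 and PTGS2 lay just below the filter, with 106.2 and 104.2 for PTGS1 and 107.3 and 106.0 for PTGS2.

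**Figure D4:**
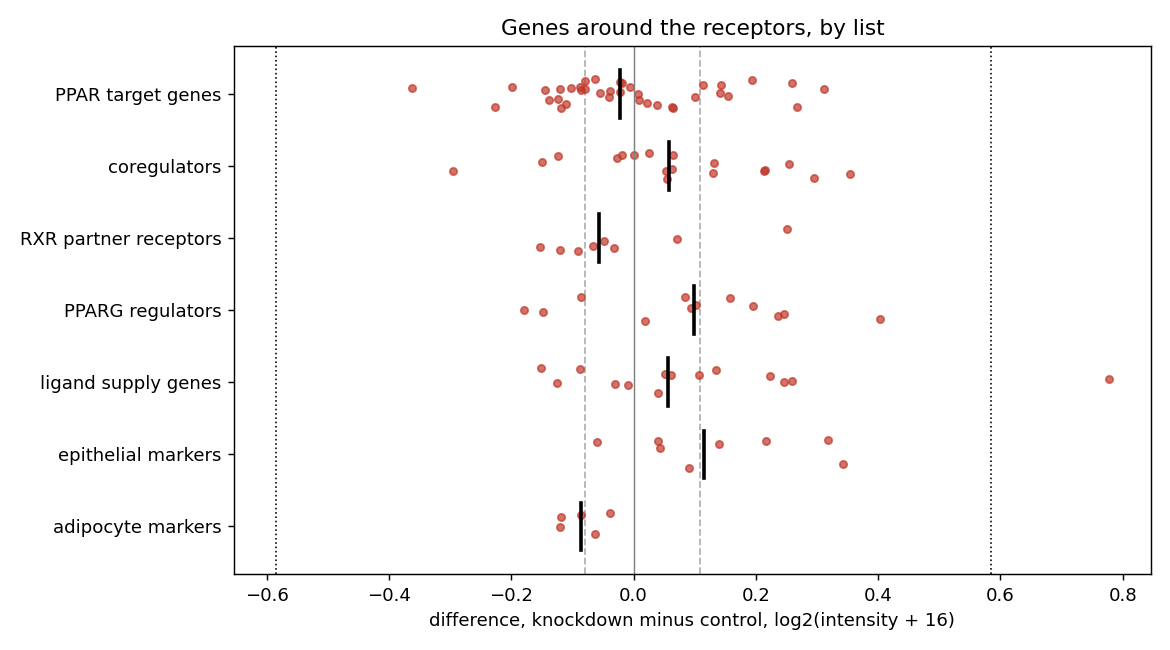
Difference between knockdown and control (log2(intensity + 16)) of each gene past the filter in 5 functional lists and 2 marker lists, 1 point per gene, with black bars at list medians, dashed lines at the quartiles of all genes past the filter (-0.08 and 0.11) and dotted lines at 1.5-fold. ALDH1A3 at 0.78 is the 1 point beyond 1.5-fold, and list medians run from -0.09 for adipocyte markers to 0.12 for epithelial markers.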

How the data were processed

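Each of 2 groups held 1 Affymetrix array. The authors deposited linear probe set intensities. MAS5 and RMA are both listed in the submitters' processing notes, without saying what each did. How the arrays were scaled to each other is unknown, and the number of arrays limits the precision.

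Of 49395 probe sets, 102 controls were kept apart. The platform annotation gave 1 symbol to 44988 of the rest, several to 1832 and none to 2473; the last 2 kinds were not analysed here. Symbols were updated by Entrez ID, which matched for 44961, in RefSeq of GRCh38.p14. Values were put on log2(intensity + 16). A gene took its probe set with the highest mean, and passed when that mean reached the median of all non-control probe sets (12220 of 18132 genes). The gene steps were tested on simulated data. Python 3.11.15, pandas 2.3.3, R 4.3.3 and limma 3.58.1 were used.

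Each receptor probe set was reported. In each list the up to 5 genes furthest from 0 in each direction and any past 1.5-fold could be named, as could the 2 genes on each side of PPARG in the order of differences; other genes are named for their role. Members and lists were chosen with earlier results of these data known. With 1 array per group no test was possible. The alternatives were pseudocounts of 1 and 64, median centring, quantile normalization, loess, normexp, the mean of all probe sets, leaving out _x_at and _s_at probe sets, no filter and a filter at the 75th percentile.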

Additional observations from a re-analysis of the deposited data

How the results depend on the processing

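No paired analysis was possible because a group is a single array; leaving out an array would leave an empty group. A value was taken as moved when it shifted by more than the probe SD of 0.09, or a count by more than 1.5 times. PPARG was higher under all 9 settings run for single genes, 1 of which (without _x_at and _s_at probe sets) leaves its probe sets as they are, from 0.52 with a pseudocount of 64 to 0.76 with normexp without an offset, a setting chosen after seeing the data. The direction of PPARA, PPARD and RXRB, all near 0, turned with the setting: PPARA was at -0.03 with the mean of all probe sets, PPARD at 0.01 after median centring and RXRB at 0.0027 after it. RXRA, RXRG and SUN2 were lower under all 9. The genes at least 1.5-fold higher dropped from 41 to 22 with the mean of all probe sets. The genes at least 1.5-fold lower went from 3 to 10 after quantile normalization, 8 after loess and 7 after normexp without an offset. The causes of these shifts were not tested. The medians of the 5 functional lists moved by less than the probe SD under all 11 settings. That SD is of single probe sets and exceeds most of these medians, so the rule could hardly call a median moved. Medians of PPARG regulators ran from 0.02 to 0.18. With the 75th percentile filter the median was 0.0006 for PPAR targets and 0.05 for coregulators, beside 0.04 for all genes. With no filter that of ligand supply genes was -0.0084, beside -0.02 for all genes. The medians of the marker lists were not recomputed.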

Other observations

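Of the genes past 1.5-fold outside the lists, 2 that are known to work beside these receptors were picked out after their values were seen. CYP24A1, the vitamin D 24-hydroxylase and a classical target of the VDR and RXR pair, stood at 231.9 in the control and 363.0 with the knockdown (0.61), with 98.4 and 137.9 (0.43) on its second probe set past the filter and -0.0057 on a dimmer one. GPAT3, a glycerol-3-phosphate acyltransferase that is induced in fat cell formation, read 179.4 and 278.3 (0.59) on its 1 probe set. Both were higher in the knockdown array, as PPARG was, and whether they depend on PPARG or RXR was not tested.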
